A study of Mus musculus with 12 samples.

Results

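This comparison set E0771 mouse mammary tumors taken 1 day after cyclophosphamide (CPA) against tumors of vehicle-treated mice, and asked how the tumor transcriptome looked at the earliest time point of the study. The 4 samples compared, 2 treated and 2 vehicle, were chosen by the group in their titles out of 12 samples in 6 groups, and all 24197 gene rows of the deposited table entered the comparison. Both groups were female C57/BL6N mice of 9 to 10 weeks carrying E0771 cells, a single mammary carcinoma line, in the fourth mammary fat pad. The vehicle mice received PBS and no CPA, and the day 1 mice 1 dose of CPA at 130 mg/kg, injected intraperitoneally on day 0. Each library was made from RNA of 2 to 3 tumors pooled together, so that differences among single tumors were not measured. In 1 of the 2 day 1 samples the treatment entry read vehicle although its title named CPA on day 1. The sample was kept in the group of its title, and every day 1 value below depends on that title being right.

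CPA is a prodrug that liver enzymes turn into a DNA-alkylating mustard, which crosslinks the strands of DNA. Crosslinks stall replication forks, and cells answer with checkpoint signaling, p53 target genes and repair by the Fanconi anemia and homologous recombination pathways. The drug also kills dividing blood precursors in the bone marrow and lymphocytes, and DNA released in damaged tumor cells can start type I interferon signaling.

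The deposited table gave 1 FPKM value per group (fragments scaled to transcript length and to the reads of the library), the mean of its 2 libraries. The values were printed with enough digits to be split back into the whole reads of each library. This was possible for 20186 of the 20186 rows above 0, with a single solution at the shortest gene length that fitted. Longer lengths were not searched. The libraries are called A and B within a group by their total reads. These letters are not the pool numbers, and which day 1 library carries the conflicting label is not known. Reads in genes numbered 20325282 to 21043661 in these 4 libraries and 8401965 to 20141932 in the libraries of the later days. The tumor label could be checked only in part. Krt8, an epithelial keratin, was at 107 and 143 FPKM in the vehicle libraries and 106 and 118 FPKM on day 1, but it was the only 1 of 18 mammary epithelial markers at a mean of 1 FPKM or more, and Epcam, an epithelial adhesion molecule, was at 0.160 and 0.218 FPKM in vehicle.

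Few genes differed strongly after 1 day. Among 10364 genes with a mean of 1 FPKM or more over both groups, 27 were at least 2-fold higher on day 1 (0.261%) and 19 at least 2-fold lower (0.183%) on the log2(FPKM + 0.1) scale, which understates the change of low genes. Of these, 25 and 10 were rows of microRNA or small nucleolar RNA genes, which are not measures of mature microRNAs and had at most 102 reads in any of the 4 libraries. At 1.5-fold, 161 genes were higher (1.55%) and 85 lower (0.82%), a split that became 121 and 134 when changes were recentred on the median gene, which lay at 0.06 (log2). A limma fit to the 4 libraries called 1 gene lower (0.00965%) and 0 higher (0.0%) at an adjusted p under 0.05, with 820 genes at an unadjusted p under 0.05, and voom on the reads of these libraries called 0 genes, with 875 at an unadjusted p under 0.05. All other differences below did not pass this test, and they are given as library values. Both day 1 libraries lay above both vehicle libraries for 2981 genes (28.8%) and below both for 1466 (14.1%), the background against which the lists are read. A list stands here for genes of 1 pathway or cell type, and its counts are over members at a mean of 1 FPKM or more.

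Vehicle library B stood apart. It differed from vehicle library A by at least 1.5-fold in 694 of the 10364 genes, whereas the 2 day 1 libraries differed that much in 180. Day 1 libraries A and B were past 1.5-fold of vehicle library A in 235 and 255 genes and of vehicle library B in 1715 and 743. The difference moved with transcript length. From the shortest to the longest of 4 classes of genes, the median of vehicle library B minus A went from 0.17 to -0.28 (log2), that of day 1 library A minus vehicle library B from -0.18 to 0.37, and that of day 1 library B minus vehicle library B from -0.11 to 0.24. Against vehicle library A the same medians spanned only -0.05 to 0.09 for day 1 library A and -0.03 to 0.07 for day 1 library B. List medians are therefore also given against vehicle library A alone, for which both day 1 libraries lay above it in 39.3% of genes and below it in 27.3%. The part of transcript length in each result was not tested.

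**Figure D1:**
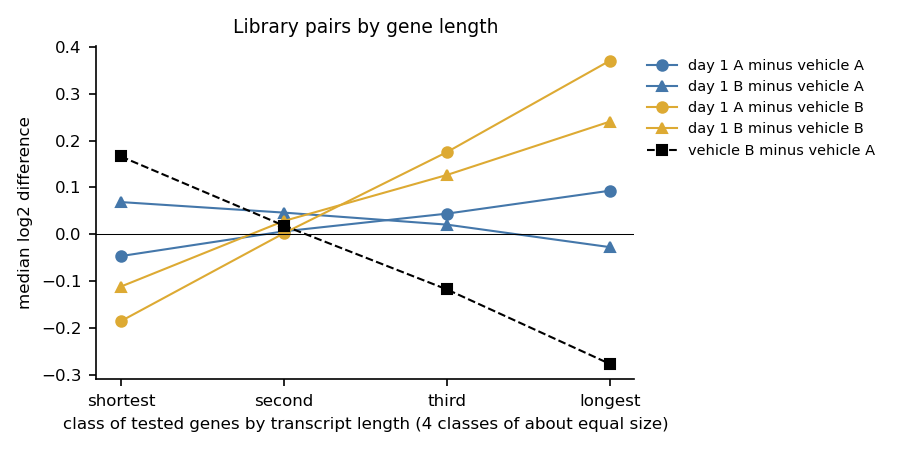
Median log2 difference of library pairs (y axis) in 4 classes of the 10364 genes by transcript length (x axis), each point a median over 2587 to 2595 genes. Day 1 lines against vehicle library A stay within -0.05 and 0.09, while those against vehicle library B climb to 0.37 and 0.24 in the longest class. The dashed line, vehicle library B minus A, falls from 0.17 in the shortest class to -0.28 in the longest.

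Hemoglobin RNA was the most reduced signal on day 1. Hbb-bt, the adult beta t globin chain carried by red cells, was at 7.27 and 8.59 FPKM in the vehicle libraries and at 0.684 and 0.932 FPKM on day 1, from 208, 241, 20 and 26 reads. The groups did not overlap, and vehicle was 9.82-fold higher. This was the gene that limma called (log2 change -3.15, SE 0.20, adjusted p = 0.0254), although its adjusted p ranged from 0.0158 to 0.206 over the other settings with all 4 libraries, and from 0.497 to 1.00 when 1 of the 4 was left out of a fit to all groups. Hbb-bs, the other adult beta chain, stood at 39.6 and 48.3 FPKM in vehicle and at 4.69 and 9.44 FPKM on day 1 (adjusted p = 0.191 in limma). Hba-a1, an adult alpha chain, stood at 16.6 and 16.4 FPKM in vehicle and 3.06 and 4.42 FPKM on day 1 (adjusted p = 0.0546 in limma). In both, each day 1 library was below each vehicle library. The rows Hba-a2 and Hbb-b1 held the same reads as Hba-a1 and Hbb-bs and add no evidence, and Hbb-b2 repeated Hbb-bt. Reads of such near-identical copies may be divided among them by the counting.

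Several genes more particular to red cells and their precursors were close to 0 in these 4 libraries. Alas2, the enzyme that starts heme synthesis in red cell precursors, was at 0.323 and 0.306 FPKM in vehicle and 0.0435 and 0.0228 FPKM on day 1, which was 29 and 27 reads against 4 and 2. Rhag, Gata1 and Car1, an ammonium channel, a transcription factor and a carbonic anhydrase of red cells and their precursors, were listed at 0 in all 4 libraries, and Slc4a1, the red cell anion exchanger, was at 0.0521 to 0.0794 FPKM. Of 8 erythroid rows tested, the 5 below both vehicle libraries were the hemoglobin rows named above, which hold 3 separate sets of reads. The list median of -2.11 (log2), between -2.40 and -1.87 over the library pairs and beside 0.06 over all genes, counts the repeated rows and lies on hemoglobin rows, and it was -0.0456 over 14 members when no minimum was set. The other 3 tested members were not lower. Bpgm, which makes the red cell metabolite that eases oxygen release, was at 3.15 and 3.59 FPKM in vehicle and 3.22 and 4.34 FPKM on day 1, and Ank1, an anchor of the red cell membrane skeleton, at 1.66 and 1.34 FPKM and then 1.88 and 1.63 FPKM, both with overlap. Tfrc, the transferrin receptor that many dividing cells use, was higher, at 18.9 and 20.4 FPKM against 15.3 and 13.1 FPKM. In whole-tumor RNA, fewer cells of a type and less RNA per cell cannot be told apart. Hemoglobin genes were also followed over the later days. The group means of Hbb-bt were 7.93 FPKM in vehicle, 0.808 on day 1, 0.207 on day 2, 0.0554 on day 3, 11.0 on day 6 and 118 FPKM on day 12. Those of Hba-a1 were 16.5 FPKM in vehicle, 3.74 on day 1, 4.52 on day 2 and 2.96 FPKM on day 3. The day 2 libraries of Hba-a1, at 2.64 and 6.39 FPKM, lay on both sides of its day 1 libraries, so these days were not ordered.

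**Figure D2:**
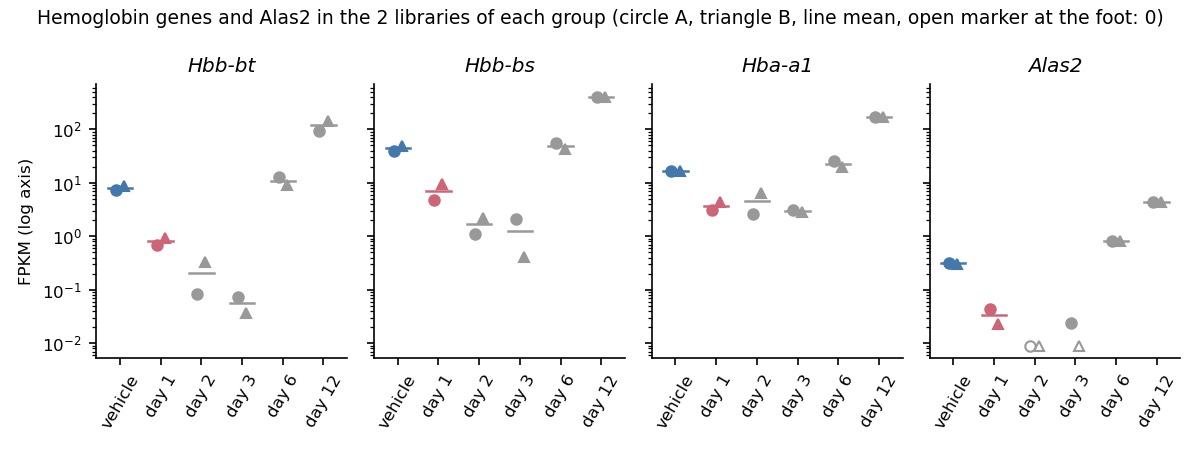
FPKM (log axis) of 3 hemoglobin genes and Alas2 in the 2 libraries of vehicle (blue), CPA day 1 (red) and the later days (grey), with lines for the mean and open markers for 0. For all 4 genes both day 1 points lie below both vehicle points, and Hbb-bt reaches a mean of 118 FPKM on day 12.

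The promoters of Hbb-bt and Hba-a1 are shown because both genes were lower together. Both run from 250 bases before to 50 bases after the start site, 5′ to 3′ on the gene's strand, from RefSeq (GRCm38.p6), at chr7:103813874-103814173 (minus strand) and chr11:32283422-32283721 (plus strand). Capitals mark CCACCC, a letter string bound by Klf-type factors in globin promoters, CCAAT and TATAAA, each searched on both strands.
Hbb-bt: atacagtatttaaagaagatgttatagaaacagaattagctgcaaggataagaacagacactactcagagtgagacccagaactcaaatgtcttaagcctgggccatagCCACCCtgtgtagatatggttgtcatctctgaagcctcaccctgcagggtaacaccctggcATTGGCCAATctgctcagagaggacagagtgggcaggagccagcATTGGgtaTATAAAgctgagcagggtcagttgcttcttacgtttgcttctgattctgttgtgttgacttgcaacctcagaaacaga
Hba-a1: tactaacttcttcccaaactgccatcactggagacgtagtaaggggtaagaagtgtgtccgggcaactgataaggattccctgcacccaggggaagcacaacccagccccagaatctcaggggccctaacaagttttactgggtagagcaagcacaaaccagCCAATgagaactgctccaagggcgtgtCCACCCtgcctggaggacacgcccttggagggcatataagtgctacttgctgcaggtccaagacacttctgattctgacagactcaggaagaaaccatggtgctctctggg
Hbb-bt held all of these strings, with 3 matches to CCAAT, 2 of which adjoin, and Hba-a1 held the first and the second. A string for Gata factors, AGATAA, was searched in the same way and was in neither window. Only exact strings were searched, so near variants, such as TGATAA and TATAAG in the Hba-a1 window, were not counted. In 10260 promoters matched to tested genes, CCACCC occurred in 36.3%, CCAAT in 37.7%, TATAAA in 6.83% and the Gata string in 5.87%.

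Genes that copy DNA were mostly higher in the day 1 tumors, by small amounts. Of 36 DNA replication genes, both day 1 libraries lay above both vehicle libraries for 28 and below both for 0, beside 28.8% and 14.1% of all genes, and 1 was past 1.5-fold. The list median was 0.32 (log2) beside 0.06 over all genes, and 0.27 and 0.34 for day 1 libraries A and B against vehicle library A. Against that library alone, 34 of 36 were higher in both day 1 libraries, beside 39.3% of all genes. Pole, the catalytic subunit of the leading-strand polymerase, was at 2.21 and 1.51 FPKM in vehicle and 3.60 and 2.96 FPKM on day 1. Pola1, which starts each new strand with primase, was at 3.86 and 3.21 FPKM and then at 5.47 and 5.07 FPKM. The groups did not overlap for either gene. Uhrf1, which carries DNA methylation over to new strands, was at 16.1 and 12.6 FPKM and then 21.6 and 20.3 FPKM, and Rrm1, the large subunit of ribonucleotide reductase, at 20.3 and 22.1 FPKM and then 28.5 and 31.5 FPKM. Cdc6 and Orc1, which load the replicative helicase at origins, stood at 3.45 and 3.84 FPKM and at 1.78 and 2.11 FPKM on day 1, above vehicle values of 2.53 and 2.57 FPKM and of 1.55 and 1.03 FPKM. Members just above the vehicle level, picked after their values were seen, included the sliding clamp Pcna (log2 change 0.11), while the ligase Lig1 had a log2 change of -0.13 with overlapping libraries.

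Mitotic genes were higher too. Of 35 mitosis and spindle genes, 27 lay above both vehicle libraries in both day 1 libraries and 0 below, 3 were past 1.5-fold, and the list median was 0.37 (log2), with 0.36 and 0.26 against vehicle library A. Against that library alone 31 of 35 were higher in both day 1 libraries, beside 39.3% of all genes. The all-gene shares above and below both vehicle libraries were 28.8% and 14.1%, and 1.55% of genes were past 1.5-fold higher. Kif20a, a kinesin of cytokinesis, was at 9.69 and 8.83 FPKM in vehicle and 15.3 and 14.1 FPKM on day 1. Top2a, the topoisomerase that untangles chromosomes, was at 43.1 and 37.8 FPKM and then 65.3 and 60.6 FPKM. Ccnb1, the cyclin that drives entry into mitosis, was at 20.5 and 18.3 FPKM and then 30.4 and 28.8 FPKM. For these 3 genes the lowest day 1 library was above the highest vehicle library, and limma gave each an adjusted p of 0.577, with a range of 0.339 to 0.891 over settings. Bub1, a spindle checkpoint kinase, Kif11, the motor that separates spindle poles, and Cenpf, a kinetochore protein, had log2 changes of 0.55, 0.53 and 0.52. Cdc20, which activates the anaphase-promoting complex, was an exception picked after its values were seen, with a log2 change of -0.07 and overlapping libraries. Group means of Top2a were 40.5 FPKM in vehicle, 63.0 on day 1, 59.2 on day 2, 52.3 on day 3, 39.5 on day 6 and 18.8 FPKM on day 12. The replication and mitosis members had median transcript lengths of 2642 and 3081 bases. The third and longest length classes held 14 and 9 of 35 mitosis genes, and 14 and 4 of 36 replication genes. Over all genes of these classes, 35.2% and 36.6% lay above both vehicle libraries, beside 15.95% in the shortest class.

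The start regions of Top2a and Kif11 are shown because mitotic genes share a pair of elements there. They lie at chr11:99024140-99024439 (minus strand) and chr19:37376132-37376431 (plus strand) in GRCm38.p6 (RefSeq), cut as above. Capitals mark CCAAT, bound by the factor NF-Y, and TTTGAA, the core of the cell cycle homology region through which mitotic genes are kept silent outside G2 and M phase, on either strand.
Top2a: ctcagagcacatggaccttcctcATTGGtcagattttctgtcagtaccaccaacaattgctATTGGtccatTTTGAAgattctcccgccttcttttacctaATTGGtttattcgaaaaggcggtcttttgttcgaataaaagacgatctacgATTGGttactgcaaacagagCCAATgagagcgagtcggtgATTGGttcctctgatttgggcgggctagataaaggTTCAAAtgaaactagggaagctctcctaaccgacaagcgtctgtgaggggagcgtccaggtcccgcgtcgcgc
Kif11: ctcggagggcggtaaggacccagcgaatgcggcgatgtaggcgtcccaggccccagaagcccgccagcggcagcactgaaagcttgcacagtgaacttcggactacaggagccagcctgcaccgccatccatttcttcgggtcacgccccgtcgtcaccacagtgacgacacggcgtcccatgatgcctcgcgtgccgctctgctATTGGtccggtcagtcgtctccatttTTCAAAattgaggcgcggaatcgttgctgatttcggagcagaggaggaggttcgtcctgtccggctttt
Top2a held 6 matches to CCAAT and 2 to TTTGAA, and Kif11 held 1 of each, at -45 and -19 bases from the start site. CCAAT was in 24 of 31 matched promoters of the mitosis list and TTTGAA in 24 of 31 (77.4%), beside 37.7% and 11.8% of all promoters matched to tested genes. In the replication list, CCAAT was in 19 of 34 and TTTGAA in 4 of 34. A match describes letters and was not tied to the change in RNA.

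**Figure D3:**
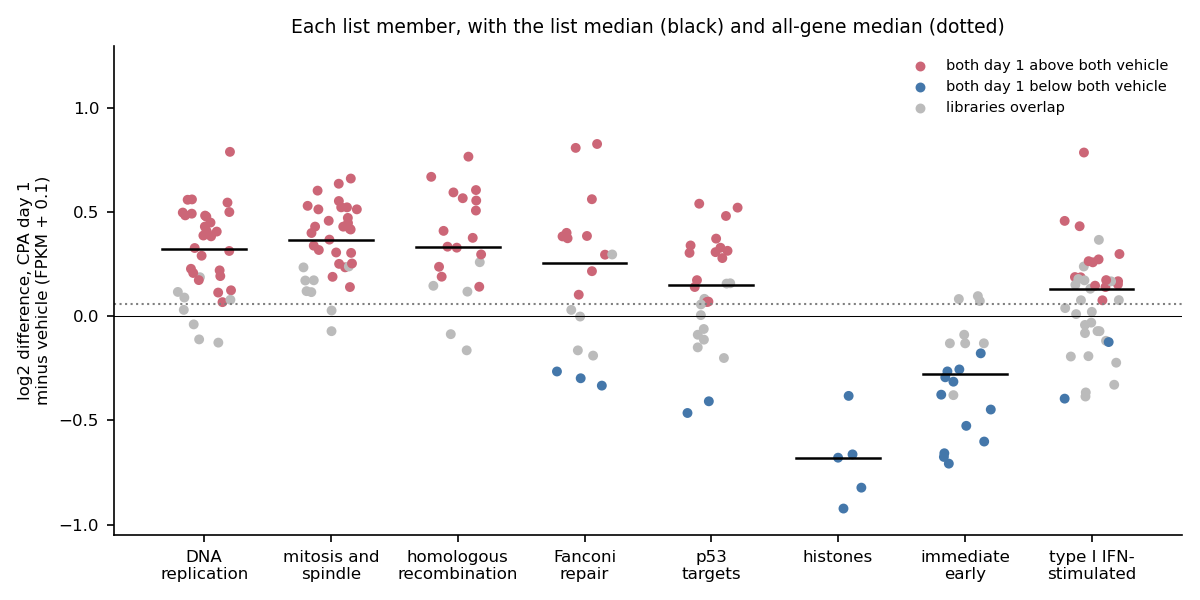
Log2 difference of CPA day 1 against vehicle (y axis) for each tested member of 8 gene lists (x axis), colored by whether both day 1 libraries lay above (red) or below (blue) both vehicle libraries or overlapped (grey). Of the replication and mitosis members, 28 of 36 and 27 of 35 are red and 0 are blue, and the 5 histone genes are all blue.

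The medians of 3 DNA repair lists were all above 0, as were 61.2% of all genes tested, whose median was 0.06 (log2). The longest class of transcripts held 7 of 20 recombination genes and 8 of 18 Fanconi genes. In that class the median over all genes was 0.16, and 36.6% lay above both vehicle libraries, beside 28.8% of all genes tested. In homologous recombination, which rebuilds broken DNA from the sister strand, 15 of 20 genes lay above both vehicle libraries and 0 below, with a median of 0.33 (log2) and 0.31 and 0.18 against vehicle library A. Brca1, which directs resection and strand exchange, was at 2.85 and 2.36 FPKM in vehicle and 4.33 and 4.07 FPKM on day 1. Xrcc3, a protein of the same pathway, was at 0.809 and 0.788 FPKM and then 1.46 and 1.40 FPKM, and Exo1, a resection nuclease, at 1.71 and 1.55 FPKM and then 2.68 and 2.38 FPKM. None of these sets of libraries overlapped. Xrcc3 was below 1 FPKM in both vehicle libraries and reached the minimum mean of 1 FPKM only through its day 1 values. The Fanconi pathway, which unhooks crosslinks, had 10 of 18 above and 3 below, a median of 0.26, medians of 0.17 and 0.11 against vehicle library A and, over its 5 genes at 5 FPKM or more, a median of -0.0012. Fancd2, the protein whose ubiquitination marks the crosslink, was at 1.97 and 1.51 FPKM in vehicle and 3.09 and 3.25 FPKM on day 1, and Fancm, the translocase that recognizes the stalled fork, at 0.833 and 0.610 FPKM and then 1.36 and 1.31 FPKM. The 3 members below both vehicle libraries, picked after their values were seen, were Fancl, Fancf and Ercc1 with log2 changes of -0.33, -0.30 and -0.26. Polq, the polymerase of end joining by microhomology, was higher as well, at 1.48 and 1.23 FPKM against 0.896 and 0.586 FPKM. Fancm and Polq were also below 1 FPKM in both vehicle libraries and reached the minimum only through day 1. For such genes a higher day 1 value is partly set by the minimum.

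Alkylation and excision repair had 7 of 19 above and 3 below both vehicle libraries, beside 28.8% and 14.1% of all genes. The median was 0.11, with 0.10 and 0.10 against vehicle library A. Ung, the uracil glycosylase, was at 3.60 and 4.10 FPKM in vehicle and 1.98 and 2.35 FPKM on day 1, and Apex1, which cuts at abasic sites, at 53.3 and 67.6 FPKM and then 43.3 and 52.2 FPKM. Xpa, a damage verifier of nucleotide excision, was at 6.34 and 8.04 FPKM and then 5.23 and 5.94 FPKM. All 3 were below both vehicle libraries in both day 1 libraries. Parp1, the sensor of strand breaks, was on the other side, at 15.7 and 15.7 FPKM against 13.3 and 11.5 FPKM.

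Targets of p53 differed by small amounts. Of 26, 14 lay above both vehicle libraries and 2 below, beside 28.8% and 14.1% of all genes. The median was 0.15 and 0 were past 1.5-fold in either direction. The median was 0.05 and 0.17 for day 1 libraries A and B against vehicle library A, 0.0696 over members at 5 FPKM or more and 0.0895 after recentring on the median gene. Cdkn1a, the CDK inhibitor p21, was at 33.3 and 36.8 FPKM in vehicle and 41.2 and 43.9 FPKM on day 1. Rrm2b, the p53-induced ribonucleotide reductase subunit, was at 1.39 and 0.971 FPKM and then 1.72 and 1.81 FPKM, and Tnfrsf10b, the death receptor for TRAIL, at 4.43 and 3.14 FPKM and then 5.71 and 5.24 FPKM. The libraries of these 3 genes did not overlap between groups. Bbc3, the BH3-only protein Puma, lay lower instead, at 8.38 and 9.09 FPKM against 6.06 and 6.55 FPKM, as did Gdf15, a stress cytokine, at 12.0 and 16.2 FPKM against 9.66 and 11.5 FPKM. Ccne1, the cyclin that opens S phase, was at 6.36 and 6.76 FPKM in vehicle and 9.24 and 9.35 FPKM on day 1.

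Histone genes lay on the other side from the replication enzymes. Most histone mRNAs carry no polyA tail, and these libraries were made from polyA-selected RNA. Of 56 histone genes in the data only 5 reached a mean of 1 FPKM. All 5 lay below both vehicle libraries, beside 14.1% of all genes. Their median was -0.68 (log2), and -0.58 and -0.48 against vehicle library A. H1f0, the linker histone of slowly dividing and differentiated cells, was at 45.4 and 54.4 FPKM in vehicle and 30.4 and 32.6 FPKM on day 1. H1f2, a replication-coupled linker histone, was at 8.72 and 12.2 FPKM and then 5.35 and 5.58 FPKM. H2bc4, a core histone H2B, was at 6.23 and 7.46 FPKM and then 4.54 and 3.94 FPKM. The limma adjusted p was 0.577 for each of these 3. H2ac8 and H2bc21, an H2A and an H2B gene, had log2 changes of -0.82 and -0.38.

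Immediate early genes, which growth factor and stress signals switch on within minutes, were mostly lower. Of 20, both day 1 libraries lay below both vehicle libraries for 12 and above for 0, and 4 were past 1.5-fold lower. Over all genes 14.1% lay below, 28.8% above, and 0.82% were past 1.5-fold lower. The median was -0.28 (log2), with -0.28 and -0.22 against vehicle library A. Against that library 16 of 20 were lower in both day 1 libraries, beside 27.3% of all genes. Ccn1 and Ccn2, matrix proteins induced through YAP and serum response factor, were at 20.7 and 19.9 FPKM and at 5.32 and 5.60 FPKM in vehicle, and at 13.5 and 11.3 FPKM and 3.81 and 3.04 FPKM on day 1. Klf2, a factor of quiescent endothelium and lymphocytes, was at 71.7 and 99.2 FPKM and then 51.8 and 55.2 FPKM. Jund, an AP-1 subunit, was at 61.4 and 86.6 FPKM and then 44.4 and 53.1 FPKM. The groups were apart for all 4 genes, and for Ccn1 and Ccn2 the vehicle libraries were also close to each other. Ier2, a short-lived nuclear protein, Junb and Jun, both AP-1 subunits, and Atf3, a stress-induced repressor, had log2 changes of -0.53, -0.31, -0.26 and -0.38 and were apart as well. Fos, their usual partner, was at 5.74 and 3.24 FPKM in vehicle and 3.67 and 3.18 FPKM on day 1, with overlap, and Myc, the growth-promoting factor, was at 98.2 and 83.8 FPKM and then 99.8 and 93.0 FPKM.

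**Figure D4:**
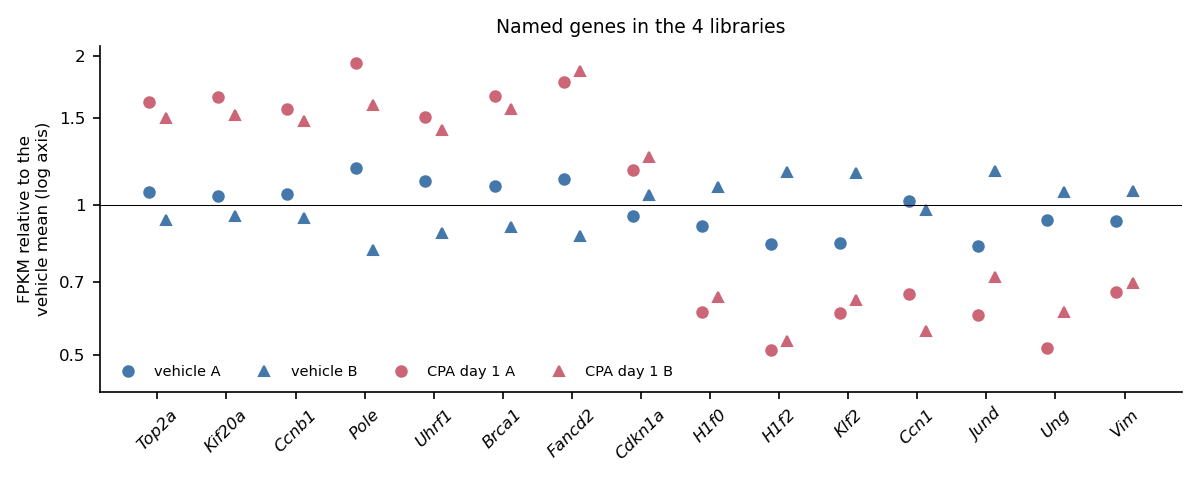
FPKM of 15 named genes in the 4 libraries relative to the vehicle mean (y axis, log scale), with vehicle in blue, CPA day 1 in red, circles for library A and triangles for library B. The 15 genes were chosen with their values known, so that blue and red points do not overlap for any of them follows from that choice. Red points lie above blue for the 8 from Top2a to Cdkn1a and below for the 7 from H1f0 to Vim. Of all genes, 28.8% lay above both vehicle libraries in both day 1 libraries and 14.1% below.

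Heat shock chaperones lay on both sides. Of 23, 6 lay above both vehicle libraries and 8 below, beside 28.8% and 14.1% of all genes. The median was -0.03 (log2), with 0.0022 and -0.013 against vehicle library A. The largest differences were those of 3 members, Hspa1a, Hspa1b and Hspb1, all lower. Hsph1 lay above both vehicle libraries, at 36.5 and 34.1 FPKM and then 40.9 and 39.1 FPKM, and Dnajb1 overlapped (log2 change -0.10). Hspa1a and Hspa1b, the stress-induced Hsp70 genes, were at 1.75 and 3.98 FPKM and at 10.5 and 23.1 FPKM in vehicle, and at 1.16 and 0.799 FPKM and 9.38 and 6.33 FPKM on day 1. Both were highest in vehicle library B, and against vehicle library A alone Hspa1b differed little in day 1 library A. These are near-identical genes whose reads may be divided by the counting. Hspb1, the small chaperone Hsp27, was at 3.54 and 4.75 FPKM and then 2.79 and 1.58 FPKM, while Hspa8, the constitutive Hsp70, was at 777 and 725 FPKM and then 776 and 827 FPKM. Among genes of the unfolded protein and integrated stress response, 6 of 26 lay above and 9 below. Their median was -0.09, with -0.06 and -0.0079 against vehicle library A. Of those above, Pdia4 was at 42.1 and 37.2 FPKM in vehicle and 50.3 and 47.6 FPKM on day 1. Members below both vehicle libraries included Trib3, a pseudokinase that binds Atf4, at 27.4 and 35.7 FPKM in vehicle and 17.7 and 21.4 FPKM on day 1, Asns, asparagine synthetase, at 72.0 and 78.0 FPKM and then 57.9 and 64.5 FPKM, and Atf4 itself at 117 and 119 FPKM and then 93.0 and 99.3 FPKM.

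Interferon-stimulated genes were mixed on day 1. Of 41 type I interferon-stimulated genes, 15 lay above both vehicle libraries and 2 below, beside 28.8% and 14.1% of all genes. Of these 41, 1 was past 1.5-fold. The median was 0.13 (log2), but only 0.11 and 0.03 against vehicle library A. Siglec1, a macrophage receptor, was at 1.87 and 1.12 FPKM in vehicle and 2.91 and 2.40 FPKM on day 1. Mx1, an antiviral GTPase, was at 4.58 and 3.74 FPKM and then 6.32 and 4.97 FPKM, and Oas2, which makes the activator of RNase L, at 4.34 and 3.66 FPKM and then 5.93 and 5.14 FPKM. The groups were apart for all 3 genes and for Oasl1, a relative of the Oas enzymes, at 7.27 and 7.91 FPKM against 9.60 and 9.12 FPKM. Isg15, the ubiquitin-like modifier, was on the other side, at 57.8 and 87.9 FPKM in vehicle and 53.4 and 57.4 FPKM on day 1. Rsad2, the antiviral enzyme viperin, at 18.1 and 18.3 FPKM and then 18.4 and 16.3 FPKM, Igtp, an interferon-inducible GTPase, at 20.5 and 16.9 FPKM and then 22.9 and 18.3 FPKM, and Cxcl10, a T cell chemokine, at 21.9 and 18.8 FPKM and then 26.99 and 21.2 FPKM, overlapped between groups. Cxcl11, a related chemokine, stayed below 1 FPKM in each of the 4 libraries.

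Upstream of these genes, 6 of 12 interferon ligands, sensors and receptors tested lay above both vehicle libraries and 0 below. Over all genes these shares were 28.8% and 14.1%. The list median was 0.15, with 0.11 and 0.11 against vehicle library A and 0.07 without vehicle library B, beside 0.06 over all genes. Of the 12, 0 were in the shortest class of transcripts and 4 in the longest. Cgas, the sensor of cytosolic DNA, was at 0.996 and 1.12 FPKM in vehicle and 1.56 and 1.34 FPKM on day 1. Sting1, its partner, was at 11.0 and 9.71 FPKM and then 12.7 and 12.5 FPKM, and Tyk2, a kinase of the interferon receptor, at 2.81 and 2.53 FPKM and then 3.77 and 3.73 FPKM. The groups were apart for each. Of 20 interferon-gamma-responsive genes 0 lay above and 3 below, and the vehicle libraries themselves differed by a median of -0.47 (log2, B minus A).

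Markers of lymphocytes were low in all 4 libraries. Only 7 of the 25 T cell markers held in the data were tested. Of these, 1 lay above both vehicle libraries and 4 below, beside 28.8% and 14.1% of all genes. The median was -0.24 (log2), with -0.25 and -0.28 against vehicle library A, and -0.139 with a pseudocount of 1 FPKM. Ptprcap, which binds the phosphatase CD45, was at 2.03 and 2.47 FPKM in vehicle and 0.688 and 0.988 FPKM on day 1. Lat, the adaptor of T cell receptor signaling, was at 1.18 and 1.53 FPKM and then 0.576 and 0.842 FPKM, and Ccr7, the lymph node homing receptor, at 1.27 and 1.32 FPKM and then 0.796 and 0.869 FPKM. The libraries of these 3 genes did not overlap. All 3 were below 1 FPKM in both day 1 libraries and reached the minimum only through their vehicle values. Lat had only 66 and 84 reads in vehicle and 33 and 46 on day 1. Cd3g, a chain of the receptor complex itself, overlapped at 1.77 and 1.21 FPKM and then 1.87 and 1.44 FPKM. Ms4a4b, a T cell membrane protein, was higher, at 1.68 and 1.90 FPKM against 1.31 and 1.00 FPKM. Cd8a, the coreceptor of killer T cells, was at 1.13 and 0.560 FPKM and then 1.08 and 0.750 FPKM. Ncr1 of natural killer cells, Foxp3 of regulatory T cells, Ifng, the cytokine of both T and natural killer cells, and Prf1, the pore-forming protein of killer cells, were each below 1 FPKM in all 4 libraries and overlapped. Gzmb, a killer cell protease, was at 1.26 and 0.968 FPKM in vehicle and 0.761 and 0.957 FPKM on day 1.

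Macrophage markers were abundant in both groups. Of 20, 2 lay above both vehicle libraries and 3 below, beside 28.8% and 14.1% of all genes. The median was 0.09, with 0.0029 and -0.10 against vehicle library A. The summed level was 795 and 723 FPKM in vehicle and 770.9 and 799 FPKM on day 1. Cd68, a lysosomal protein of macrophages, was at 26.5 and 18.4 FPKM and then 30.8 and 26.3 FPKM, and Itgam, the integrin CD11b, at 6.17 and 3.41 FPKM and then 6.82 and 5.42 FPKM, both with overlap. Mertk, a receptor for apoptotic cells, was higher, at 2.58 and 2.22 FPKM against 1.85 and 1.02 FPKM, while Ly6c2, a marker of young monocytes, was lower, at 8.85 and 9.81 FPKM against 12.7 and 14.2 FPKM. The libraries of these 2 genes did not overlap.

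Markers of other tissues varied between pools of the same group. The summed skeletal muscle markers were 23.6 and 4.37 FPKM in vehicle libraries A and B and 15.6 and 3.83 FPKM in day 1 libraries A and B, and 6 of 6 tested members overlapped. The adipocyte markers summed to 65.3 and 125 FPKM in vehicle and 67.2 and 74.6 FPKM on day 1, and those of MHC class II to 559 and 366 FPKM and then 466 and 416 FPKM. Acta1 and Tnnc2, proteins of the muscle sarcomere, had log2 changes of -0.90 and -1.38, and without vehicle library A these were 2.53 and 2.28. Fibroblast and matrix genes had 7 of 15 above and 1 below, with a median of 0.22, which was 0.08 and 0.12 against vehicle library A, 0.0988 without vehicle library B and 0.127 over members at 5 FPKM or more. Col1a2, a chain of type I collagen, was at 6.65 and 7.65 FPKM in vehicle and 9.47 and 10.2 FPKM on day 1, and Postn, a matricellular protein, at 7.05 and 4.82 FPKM and then 10.2 and 7.68 FPKM, with no overlap. Endothelial genes had 2 of 10 above and 5 below and a median of -0.18, with -0.0089 and -0.20 against vehicle library A, led by Cldn5, a tight junction protein, at 5.04 and 8.41 FPKM and then 3.76 and 4.08 FPKM.

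Short and abundant housekeeping transcripts were lower against vehicle library B. Cytosolic ribosomal protein genes had 1 of 73 above and 35 below and a median of -0.25 (log2), and 66 of 73 belonged to the shortest class of genes, and against vehicle library A the medians were -0.19 and -0.01. Oxidative phosphorylation subunits had a median of -0.17, and -0.08 and 0.12 against vehicle library A. Of the 15 most abundant genes in vehicle, Vim, the intermediate filament of mesenchymal-type cells, was at 1447 and 1660 FPKM in vehicle and 1040 and 1084 FPKM on day 1, the lowest vehicle library still above the highest day 1 library. Rps12, a ribosomal protein, was at 1786 and 2528 FPKM and then 1379 and 1476 FPKM.

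**Figure D5:**
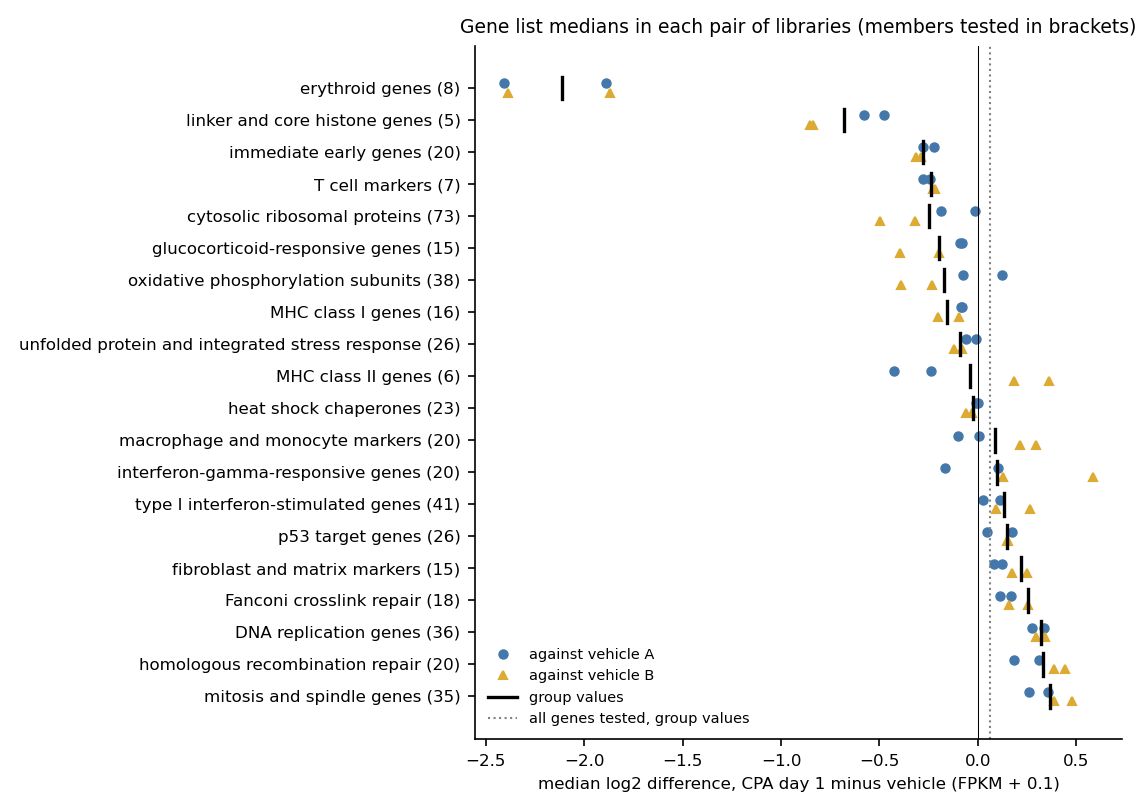
Median log2 difference of CPA day 1 against vehicle (x axis) for 20 gene lists (y axis, tested members in brackets), for group values (black bars), library pairs with vehicle A (blue circles) and with vehicle B (yellow triangles), and all genes (dotted line, 0.06). Most lists keep their side of 0 in all 4 pairs, so this is not particular to any of them. Oxidative phosphorylation, heat shock, macrophage and interferon-gamma lists change side between pairs, and MHC class II genes switch side with the vehicle library.

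Other genes with large differences, of which Dbp is also in the circadian clock list, were low to moderate in level. Plac9a and Plac9b, rows that hold the same reads, were past 2-fold higher, with Plac9a at 2.12 and 0 FPKM in vehicle and 0.111 and 7.28 FPKM on day 1, and without day 1 library B the log2 changes of Plac9a and Plac9b were -2.45 and -1.94. Zfp382, a zinc finger repressor, was at 0.803 and 0.492 FPKM and then 1.54 and 1.24 FPKM, and Abcg2, a drug efflux transporter, at 0.920 and 0.875 FPKM and then 1.82 and 1.55 FPKM. Glipr1, a secreted p53-responsive protein, was at 7.84 and 5.01 FPKM and then 13.1 and 10.2 FPKM. Both day 1 libraries were above both vehicle libraries for these 3 genes and for Zwilch, a kinetochore protein, at 12.2 and 12.1 FPKM against 8.48 and 5.48 FPKM. Zfp382 and Abcg2 were below 1 FPKM in both vehicle libraries and reached the minimum mean of 1 FPKM only through day 1. On the lower side, Dbp, a clock output factor that follows the time of day, was at 4.62 and 7.91 FPKM in vehicle and 4.12 and 2.52 FPKM on day 1, and Lgals7, a galectin, at 3.32 and 5.04 FPKM and then 2.24 and 1.97 FPKM. In limma no gene of this paragraph passed the threshold.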

How the data were processed

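RNA was measured in 12 pooled tumor samples, of which the 4 of vehicle and CPA day 1 were compared. Per the labels and the study's methods, the authors made stranded libraries of polyA-selected RNA, mapped the reads to the mm9 build by TopHat2, used featureCounts for counting and edgeR for group contrasts; the versions of these tools are not given in the sources used here. What they deposited is 1 FPKM value per group, from its 2 libraries, beside their own ratio, signed fold change and adjusted p for each day, all of which were left unused. Gene coordinates of the table are in mm9 and were not printed.

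A group FPKM is the mean of 2 library values, each a whole number of reads divided by gene length and library total. Totals were found from genes with few reads, and lengths and reads by a search over whole numbers. The fitted totals lay within 0.00017 of whole numbers, which gave 45401633, 44524767, 46414557 and 44274385 reads for vehicle A and B and day 1 A and B, of which 45.0 to 47.3% were in genes. The paper states a lower average depth, in paired-end reads, for its tumor libraries, and what the fitted totals count was not resolved. The search was tested on simulated data. Because the table was taken to hold no library values, the design named no test. limma 3.58.1 (R 4.3.3) was added after the data were seen, on log2(FPKM + 0.1) of the 4 libraries with a mean-variance trend and Benjamini-Hochberg adjustment over 10364 genes. It was tested on simulated data of known folds. The labels do not say how the pools relate to single mice beyond their number, and p-values describe the spread among these pools only.

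Symbols of 22846 rows were current and 1163 matched a synonym in the RefSeq table, dates stood in place of 27, and 161 found no match. Of the rows above 0, 89 repeated the values of another row and were counted once. A gene counted as past 2-fold or 1.5-fold on the log2(FPKM + 0.1) scale at a mean of 1 FPKM or more. The members of the 43 gene lists, and the comparison itself, were chosen with earlier results of these data known. Named genes are the 15 most higher and 15 most lower (leaving out predicted genes, small RNAs and receptor segments), up to 6 of each list with the largest change, all erythroid, heat shock and immediate early genes, the genes the study measured by qPCR, and the 15 most abundant in vehicle. Not every gene that the rule picked is named. Genes named outside it are said to be picked after their values were seen, except Epcam, a marker of the tumor label. Alternatives were other pseudocounts, FPKM minimums, recentring, counting every row and leaving out each library, and, chosen after the data were seen, limma with other libraries and voom. Software was numpy 2.4.6, pandas 2.3.3, numba 0.67.0 and matplotlib 3.10.9 under Python 3.11.15.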

Additional observations from a re-analysis of the deposited data

How the results depend on the processing

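No paired analysis was possible because the libraries recovered from the group values carry no pool numbers. The count past 2-fold was 46, and it was 18 with a pseudocount of 1 FPKM, 280 with no minimum, 7 at a mean of 5 FPKM or more, and 58 (without vehicle library B), 65 and 77 (without day 1 libraries A and B) and 157 (without vehicle library A) when 1 library was left out. The count past 1.5-fold was 246, and 118, 914 and 79 under the same 3 settings and 181 (without vehicle library B), 498 (without day 1 library B) and 1130 (without vehicle library A). Recentring on the median gene moved the 1.5-fold split from 161 higher and 85 lower to 121 and 134. limma called 1 gene at the main setting, 0 with 12 libraries, 0 with 10 libraries (without day 12), 0 with each library centred on its median gene, 0 with voom on 4 or on 12 libraries, and 3 with a pseudocount of 1 (Hbb-bt, Hba-a1 and Hba-a2, of which the last 2 share reads). Leaving out 1 library gave 0 calls with 11 libraries in the fit and 42 (without day 1 library A) to 2306 (without vehicle library A) with 3 libraries, where the lone library is assumed to vary like the others and little spread is left to measure.

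Recentring moved the median of heat shock chaperones to -0.087, DNA replication to 0.261, Fanconi repair to 0.197, p53 targets to 0.0895, the unfolded protein response to -0.150, MHC class I to -0.217, excision repair to 0.0481, immediate early genes to -0.338 and T cell markers to -0.297. At 5 FPKM or more, T cell markers stood at 0.0157 (1 gene), excision repair at 0.0493, p53 targets at 0.0696, fibroblast markers at 0.127, Fanconi repair at -0.0012 and DNA replication at 0.214. With no minimum, T cell markers stood at -0.170, histones at -0.329 over 55 genes and erythroid genes at -0.0456 over 14, and with a pseudocount of 1 T cell markers at -0.139. Leaving out each library gave 0.139 to 0.216 for Fanconi repair, -0.250 to -0.0975 for MHC class I, 0.0988 to 0.226 for fibroblast markers, 0.311 to 0.464 for homologous recombination, 0.0564 to 0.333 for interferon ligands and receptors, 0.0218 to 0.185 for type I interferon-stimulated genes and -0.110 to -0.0271 for the unfolded protein response. Of the other list values, 192 moved by less than the spread among library pairs. Leaving out each library moved the log2 change of Plac9b from -1.94 to 4.15 and of Plac9a from -2.45 to 5.25, with the lowest value without day 1 library B. It moved Cfd, an adipocyte protease, from -1.11 to 0.24, with the highest value without vehicle library B, and Acta1 from -3.14 to 2.53 and Tnnc2 from -3.18 to 2.28, with the highest value without vehicle library A. The cause of these moves was not tested. The vehicle libraries alone were past 1.5-fold of each other in 694 genes, and genes with few reads, such as Alas2, carry the largest counting error.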

Other observations

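The counts of other gene groups are read beside the 28.8% of all genes above both vehicle libraries and the 14.1% below both, and many are close to these shares. Sterol biosynthesis genes had 10 of 24 members above both vehicle libraries and 0 below, with Acat2, which makes acetoacetyl-CoA, at 8.28 and 7.74 FPKM in vehicle and 9.36 and 12.6 FPKM on day 1. Their median was 0.07 (log2), near that of all genes, with -0.02 and 0.23 against vehicle library A. Glutathione and Nrf2 genes had 7 of 19 above and 2 below, among them Gstm1, a glutathione transferase, at 3.03 and 2.52 FPKM and then 3.95 and 4.17 FPKM, and G6pdx, which supplies NADPH, at 29.4 and 24.3 FPKM and then 37.2 and 37.3 FPKM. Apoptosis genes had 10 of 26 above and 3 below, with Ripk3, the necroptosis kinase, at 7.81 and 7.45 FPKM and then 10.8 and 10.3 FPKM, and fatty acid synthesis genes 5 of 11 above and 2 below. G1 cyclins and CDK inhibitors had 5 of 15 above and 2 below, and aldehyde dehydrogenases, some of which inactivate a CPA metabolite, 2 of 9 above and 2 below.

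Glucocorticoid-responsive genes had 1 of 15 above and 8 below, with Tsc22d3, the glucocorticoid-induced leucine zipper, at 13.7 and 18.2 FPKM in vehicle and 12.9 and 12.1 FPKM on day 1, and Mt1, a metal-binding protein, at 172 and 202 FPKM and then 154 and 146 FPKM. Hypoxia and glycolysis genes had 2 of 25 above and 10 below, with Bnip3, a mitophagy receptor, at 34.1 and 35.6 FPKM and then 25.7 and 27.4 FPKM. MHC class I genes had 2 of 16 above and 8 below, circadian clock genes 1 of 14 and 5, proteasome subunits 4 of 31 and 2, and inflammatory cytokines and chemokines 3 of 14 and 3. Among sparse cell types, dendritic cell markers had 0 of 6 above and 3 below, mast cell and eosinophil markers 0 of 4 and 1, neutrophil markers 1 of 3 and 0, regulatory T cell markers 1 of 2 and 1, cytotoxic effector genes 1 of 1 and 0, and natural killer and B cell markers 0 above and 0 below of 3 and 1. In limma at the main setting, 0 genes of these lists passed the threshold.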
